A study of Mus musculus with 3 samples.

Results

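The 31 genes described here make up the MHC class I presentation pathway from proteasome to cell surface, measured in macrophages of mouse mammary tumours. They were 8 class I heavy chain genes, the light chain gene B2m, 7 genes of peptide transport and loading, the peptidase gene Erap1, the transactivator gene Nlrc5 and 13 proteasome genes. Their list was drawn up by symbol and function with earlier results of these data known, and all 31 were found among the 31053 genes of each of the 3 count matrices. Tumours of 750 mm3 came from 3 mice of the strain FVB/N-Tg(MMTVPyVT)634Mul/J, in which the mouse mammary tumour virus promoter drives polyoma middle T antigen in mammary epithelium. Each tumour was digested with collagenase I and DNase I, cells with the surface profile CD45+ Ly6G- CD11b+ F4/80+ were sorted, and 1 droplet library per mouse was made with 10x 3′ v3 chemistry. All 3 mice formed 1 group with no healthy or treated group beside it, and the labels do not give their age. Comparisons were therefore made between macrophage classes within the same mice.

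MHC class I molecules carry short peptides from inside the cell to its surface, where CD8+ T cells read them. The proteasome cuts proteins into peptides, the TAP transporter moves them into the endoplasmic reticulum, and a loading complex of tapasin, calreticulin and Pdia3 fits them onto a heavy chain bound to beta-2 microglobulin. Interferons replace the constitutive catalytic subunits Psmb5, Psmb6 and Psmb7 by Psmb8, Psmb9 and Psmb10, which form the immunoproteasome. The classical heavy chains H2-K1 and H2-D1 present to most CD8+ T cells, while non-classical heavy chains of the H2-Q, H2-T and H2-M groups have narrower ligands and receptors. NLRC5 drives transcription of class I genes, as CIITA does for class II genes.

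The matrices held 1074, 2470 and 7429 barcodes for mice 1, 2 and 3, with 12454677, 41097369 and 86178419 UMIs. After removal of barcodes under 500 genes or over 15% mitochondrial UMIs, 663, 2108 and 6978 cells remained, with median depths of 15014, 13600 and 9318.5 UMIs. Over 15% mitochondrial UMIs were found in 36.0%, 12.1% and 4.13% of barcodes, so mouse 1 lost the largest share of its cells. Macrophage genes fitted the sort, with C1qa detected in 96.1%, 97.6% and 99.0% and Csf1r in 94.6%, 96.1% and 96.3% of kept cells, and no kept cell had a Ly6g UMI. Mice 2 and 3 shared 8 barcodes, and mouse 1 shared none with either. Cells were grouped into 16 clusters with the 31 genes and the other genes of the pathway left out of the clustering. Of these, 13 clusters entered the comparisons and are called macrophage classes.

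Classes were named only where enough markers of a fixed list were raised. The interferon-like class had 278 cells (8, 53 and 217 in mice 1, 2 and 3) with 12 of 12 markers raised, and the cycling-like class had 750 cells with 14 of 14. The LYVE-1 resident-like class had 781 cells with 11 of 12 markers raised, and Chil3 and Plac8 were also among its leading genes. The hypoxia-like class had 877 cells with 6 of 10 markers raised, the smallest part of a list among the named classes. Arg1 and Bnip3 of that list were among its leading genes, as was Spp1 of the lipid-associated list. Cluster 0 had 1269 cells with 8 of 12 inflammatory markers raised, but none of them was among its 10 leading genes, which included Cd207, Ccl22, Gpr84 and, from lists of other cells, Il12b and Siglech, so it is called by its number. The other 8 classes also keep their cluster number. Cluster 2 had 10 of 12 LYVE-1 markers raised as well, with Lyve1, Cbr2, Cd209f and Cd209g among its 10 leading genes, and the name was given to the 1 cluster with more of the list. At Leiden resolution 0.5, and with clusters and values from separate UMIs, the name went to the cells of cluster 2 instead, so LYVE-1 resident-like stands below for 1 of 2 clusters with these markers. Clusters 2 and 9 both had a median depth 2.52 times that of their mice, with median doublet scores of 0.115 and 0.0912. Cluster 3 was led by Hspa1a, Hspa1b, Atf3, Jun and Fos, and cluster 11 by the S-phase genes Ung, Mcm6, Hells and Uhrf1. Left out were 2 low-depth clusters and 59 tumour epithelium-like cells. In those 59 cells C1qa stood at 348, 3208 and 2449 CPM (UMI counts scaled to equal totals) and H2-K1 at 209, 985 and 1127 CPM, and how much of any level came from free RNA was not tested.

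Over all kept cells the classical heavy chains were measured at 1538, 1343 and 1388 CPM for H2-K1 and at 3022, 2409 and 3988 CPM for H2-D1 in mice 1, 2 and 3. B2m, the light chain shared by all class I molecules, had 1505, 987 and 1841 CPM. H2-K1 varied little between mice, whereas H2-D1 and B2m were lowest in mouse 2 and highest in mouse 3. Counts of 3′ tags were compared between cells, not between genes. The shares given further below set counts of different genes side by side and were read as differences between classes, not as amounts. Of the non-classical genes, H2-Q4 had 35.2, 36.2 and 27.9 CPM, H2-Q6 22.2, 31.4 and 19.2 CPM, and H2-Q7 85.2, 86.0 and 72.0 CPM. H2-Q6 and H2-Q7 belong to the Qa-2 genes. H2-T23, which encodes Qa-1, the ligand of the NKG2A receptor, had 114, 119 and 95.3 CPM. H2-T22, a ligand of some gamma-delta T cells, had 13.7, 8.44 and 13.8 CPM, and H2-M3, which binds N-formyl peptides, 53.0, 35.9 and 49.9 CPM. The H2-Q genes and H2-T23 were lowest in mouse 3, the reverse of H2-D1.

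Both subunits of the peptide transporter were measured, with 39.4, 34.7 and 31.1 CPM for Tap1 and 29.2, 16.3 and 38.6 CPM for Tap2. Tapasin (Tapbp), which bridges TAP and the heavy chain, had 146, 129 and 117 CPM, and the tapasin-related editor Tapbpl had 12.4, 10.8 and 14.2 CPM. The chaperones Calr, Canx and Pdia3, which serve many glycoproteins, had 798, 852 and 867, 226, 283 and 245, and 388, 493 and 423 CPM. Tap2 ranged most widely between mice among these genes and was lowest in mouse 2. Erap1, which trims peptides in the endoplasmic reticulum, had 23.2, 28.9 and 22.01 CPM. Nlrc5 had 5.47, 5.76 and 4.59 CPM.

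Among the catalytic subunits, Psmb8 had 272, 271 and 284 CPM, Psmb9 72.7, 54.1 and 93.5 CPM and Psmb10 128, 121 and 125 CPM. Their constitutive counterparts Psmb5, Psmb6 and Psmb7 had 157, 181 and 185, 251, 241 and 270, and 78.1, 81.7 and 102 CPM. Psmb8 and Psmb10 differed little between mice, and Psmb9 followed the order of H2-D1 and B2m. The alpha ring gates the core of the proteasome. Its genes had 171, 146 and 183 CPM for Psma1, 209, 215 and 211 CPM for Psma3, 104, 84.8 and 125 CPM for Psma5, and 284, 319 and 337 CPM for Psma7. The activator subunits Psme1 and Psme2, which form the interferon-inducible PA28 cap, had 281, 249 and 257 and 218, 185 and 201 CPM, and Psme3, a nuclear activator, had 26.6, 31.3 and 30.99 CPM.

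**Figure D1:**
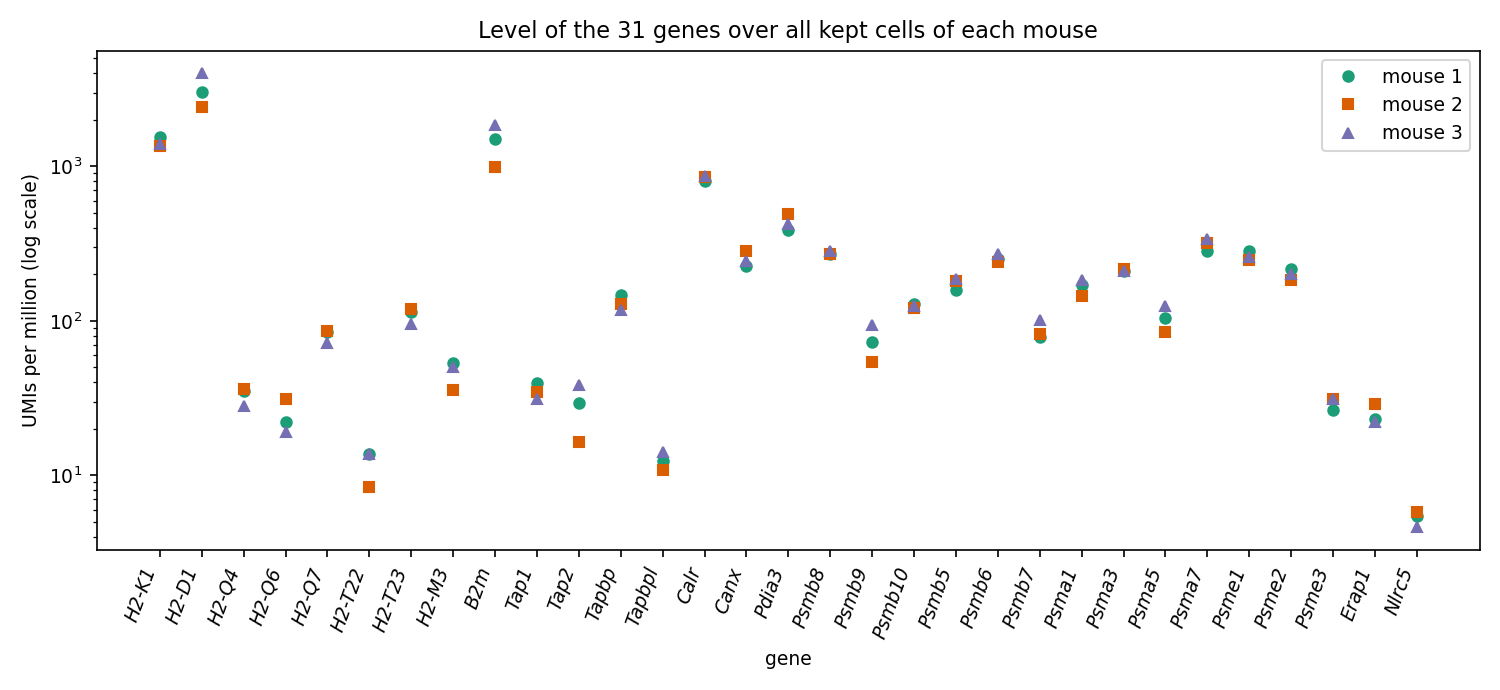
CPM on a log scale (y) for each of the 31 genes (x) over all kept cells, with 1 point per mouse. Points of the 3 mice lie close together for most genes, while B2m, H2-D1, Tap2 and Psmb9 have their lowest point in mouse 2 and their highest in mouse 3.

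On chromosome 17, 13 of the 31 genes lie between positions 33915899 and 37274484 of GRCm38 (GENCODE vM21), the mouse MHC. There, Tap1 and Psmb9 stand head to head: their RefSeq start sites are 226 bases apart, so that their promoter windows (250 bases before to 50 after the start) share 275 bases. The Tap1 window is shown because both genes were raised together in the interferon-like class. It is chr17:34187306-34187605, plus strand, and capitals mark the bases between the start sites.
Tap1: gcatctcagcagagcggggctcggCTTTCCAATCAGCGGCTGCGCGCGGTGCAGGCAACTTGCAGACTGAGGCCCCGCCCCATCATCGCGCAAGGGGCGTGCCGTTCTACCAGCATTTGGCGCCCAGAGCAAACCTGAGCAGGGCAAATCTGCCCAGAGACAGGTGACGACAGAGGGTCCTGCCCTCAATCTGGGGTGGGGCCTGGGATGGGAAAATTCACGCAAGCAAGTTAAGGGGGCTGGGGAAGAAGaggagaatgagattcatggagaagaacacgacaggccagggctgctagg

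RefSeq promoter windows of GRCm38.p6 matched 27 of the 31 genes, the others being Tap2, Tapbpl, Psmb7 and Nlrc5. Both strands were searched for the letters of the interferon-stimulated response element (GAAA, 2 bases of any kind, GAAA), which occur in 3.44% of all 32851 windows and in windows of 3.99% of 27025 genes. They were found in 5 of the 27 genes, of which 4 were raised in the interferon-like class, all but Erap1, as were 11 of the 22 genes without them, Tap1, Psmb8 and Psmb9 included. The stretches are shown so that the letters can be set beside the values. In each stretch below, capitals mark the match, read on the strand of the gene, so that TTTC words are matches on the opposite strand. The stretches are chr17:36042914-36042943 (minus strand), chr17:36032806-36032835 (minus), chr2:122147538-122147567 (plus), chr14:55578493-55578522 (plus) and chr13:74639839-74639868 (plus), in the order given.
H2-T22: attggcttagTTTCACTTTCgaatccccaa
H2-T23: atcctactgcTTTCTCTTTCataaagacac
B2m: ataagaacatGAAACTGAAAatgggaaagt
Psme1: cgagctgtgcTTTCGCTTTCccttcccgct
Erap1: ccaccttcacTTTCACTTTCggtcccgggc

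The letters of the NF-kB site (GGG, 2 bases of any kind, TT, 1 base of any kind, CC) occur in 4.79% of windows and in windows of 5.48% of genes. They were found in 6 of the 27 genes, namely H2-K1, H2-D1, H2-Q4, H2-Q6, H2-Q7 and B2m, and the B2m match overlaps the end of the interferon stretch above. Of these 6 genes, 5 were raised in the interferon-like class, all but H2-D1, as were 10 of the 21 genes without the letters. The stretches of H2-K1, H2-D1, H2-Q6 and H2-Q7 are shown because they share nearly the same letters. H2-Q6 and H2-Q7 had larger falls than H2-K1 in cluster 5 and rises in cluster 0, where H2-K1 and H2-D1 were not called. These differences between genes were not tested in themselves, nor was any link of the letters to the levels. The H2-Q4 stretch differs within the match itself and is not shown. Those shown are chr17:34000439-34000468 (minus strand), chr17:35262913-35262942, chr17:35424667-35424696 and chr17:35439012-35439041 (plus). A match is a description of the C57BL/6 reference letters, not a bound site, and FVB/N letters were not read here.
H2-K1: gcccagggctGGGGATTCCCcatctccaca
H2-D1: gcccagggctGGGGATTCCCcatctcctca
H2-Q6: gcccatggctGGGGATTCCCcatctcccca
H2-Q7: gcccatggctGGGGATTCCCatctccccag

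FVB/N mice carry another H2 haplotype than the C57BL/6 reference, and class I paralogs are alike, so counts of single heavy chain genes are uncertain. In the last 500 bases of the longest reference transcript of each gene, 50-base words were looked up in other genes. Of those of H2-Q4, 21.3% also occur in another gene, all of them in H2-Q6. For H2-Q6 the share was 35.9% over 17 other genes, with 13.5% in H2-Q4. For H2-D1 it was 9.53% over 80 genes, with 0.443% in H2-K1. H2-T23 had 23.9% over 74 genes, none of them a class I gene. The share was 4.21% for H2-T22, in H2-T10, and 0.443% for H2-K1 and for H2-Q7. For Psmb5, 51.2% occur in 1 other gene. For Tap1, B2m, Psmb6, Psmb8, Psmb9 and H2-M3 the share was 0. How FVB/N alleles were divided among these genes by alignment was not tested. Whether the 3′ tags came from the end of the longest transcript was not tested either.

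In the interferon-like class, 18 of the 31 genes rose against the mean of the other 12 classes and none fell. DESeq2 also called 18 higher and 0 lower. Those that rose included Nlrc5, both TAP genes, all 3 immunoproteasome subunits and 5 of 6 non-classical heavy chains. The constitutive catalytic subunits, the chaperones and H2-D1 did not pass the test. Calls used edgeR's quasi-likelihood test with mouse as a block and Benjamini-Hochberg adjustment over 8597 genes, at an adjusted p under 0.05, on summed counts of each class in each mouse. Of all genes tested, 3.52% rose and 1.15% fell in this class. The median log2 fold change was 0.43 for the 31 genes, against -0.04 for all genes. Since the classes were formed from other genes of the same cells, these p-values are not independent of how classes were made.

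Tap1 had 143, 103 and 107 CPM in interferon-like cells of mice 1, 2 and 3, against 37.5, 34.1 and 29.4 CPM in the other classes (levels between classes are scaled by edgeR's TMM factors). The ranges did not overlap, and the log2 fold change was 1.81 ± 0.12 (SE, adjusted p = 2.2e-17). Tap2 had 57.1, 28.2 and 79.7 CPM, against 29.2, 17.5 and 38.3 CPM, a log2 fold change of 1.00 ± 0.13, higher in each mouse although the ranges overlapped between mice. Tapbpl rose by 0.94 ± 0.18 and Tapbp by 0.78 ± 0.10 on the log2 scale, Tapbp in mice 2 and 3 only, with 150 CPM in mouse 1, against 153 CPM in its other classes. The chaperones Calr (0.05), Canx (-0.03) and Pdia3 (-0.02) did not pass the test, nor did Erap1 (0.20 ± 0.16).

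Nlrc5 had 14.3, 19.2 and 18.6 CPM in interferon-like cells, against 5.71, 5.22 and 3.91 CPM in the other classes, a log2 fold change of 2.12 ± 0.26 (adjusted p = 1.68e-08). It rested on 2, 17 and 49 UMIs in the 3 mice. The ranges did not overlap. Irf1, the transcription factor that binds interferon response elements of class I genes, had 99.9, 83.6 and 52.4 CPM, against 30.5, 41.2 and 23.2 CPM (1.25 ± 0.14, adjusted p = 6.87e-10). Of the 79 tested genes of the pathway outside the 31, Irf1 and the oxidase subunit gene Cybb (0.42 ± 0.08) rose and Hfe, an iron regulator of class I fold, fell by 0.50 on the log2 scale, in 2 of 3 mice. Their median was 0.04, and of all genes 3.52% rose and 1.15% fell in this class.

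Non-classical heavy chains other than H2-M3 had larger fold changes than the classical genes in these cells, a difference that was not tested in itself. H2-T23 had 371, 328 and 294 CPM, against 110, 124 and 88.8 CPM in the other classes (1.64 ± 0.14, adjusted p = 4.2e-10), and H2-T22 had 35.7, 14.7 and 55.4 CPM, against 14.2, 8.78 and 12.04 CPM (1.89 ± 0.17, adjusted p = 2.1e-12). Neither pair of ranges overlapped. H2-Q6 rose by 0.91 ± 0.17, in mice 2 and 3, H2-Q7 by 0.78 ± 0.14 and H2-Q4 by 0.55 ± 0.17 (adjusted p = 0.0389). H2-M3 did not pass the test (0.24 ± 0.13). H2-K1 had 1741, 1736 and 2125 CPM, against 1551, 1375 and 1333 CPM, a smaller rise of 0.43 ± 0.10 (adjusted p = 0.00284) with ranges apart. H2-D1 had 3267, 2625 and 5428 CPM, against 3189, 2472 and 3993 CPM, and did not pass the test (0.23 ± 0.10, adjusted p = 0.249). B2m rose by 0.43 ± 0.07.

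All 3 immunoproteasome subunits rose in interferon-like cells, with no call among their constitutive counterparts. Psmb9 had 121, 125 and 235 CPM, against 72.4, 53.3 and 89.5 CPM in the other classes (1.30 ± 0.11, adjusted p = 4.2e-14), and Psmb8 had 564, 427 and 535 CPM, against 280, 273 and 275 CPM (0.88 ± 0.08, adjusted p = 3.6e-12). Both pairs of ranges were apart. Psmb10 had 128, 228 and 246 CPM, against 133, 120 and 125 CPM (0.85 ± 0.10, adjusted p = 9.5e-09), higher in mice 2 and 3. Psmb5 (0.21 ± 0.09), Psmb6 (0.21 ± 0.09) and Psmb7 (0.12 ± 0.11) were not called, although 2 of these 3 had an unadjusted p under 0.05 and DESeq2 called 1 of them higher. Psme2 rose by 0.87 ± 0.11, Psme1 by 0.75 ± 0.07 and Psma5 by 0.37 ± 0.10. Psma1 (0.12), Psma3 (0.15), Psma7 (0.08) and Psme3 (-0.14) did not pass. The 19S regulatory particle, which unfolds substrates, had no call among 21 genes, where 3 had an unadjusted p under 0.05 and DESeq2 called 1. The 7 other core subunits had none, where 2 had an unadjusted p under 0.05 and DESeq2 called 0.

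Mouse 3 gave 217 of the 278 interferon-like cells, and without it 7 of the 18 calls remained: H2-T23, Tap1, Psmb8, Psmb9, Psmb10, Psme1 and Nlrc5. Without mouse 1 there were 21 calls and without mouse 2 there were 17, and those 7 genes were called in each. With library totals in place of TMM factors the count stayed at 18 higher and 0 lower. The interferon marker list summed to 4268, 2956 and 4783 CPM in this class. The T cell list summed to 209, 544 and 193 CPM with UMIs for 9 of 9 markers, and in the other 12 classes to between 24.9 and 344 CPM over mice. The natural killer cell list had UMIs for 3 of 7 markers and 56.3, 23.5 and 50.6 CPM, with Klre1, Gzma, Prf1 and Eomes at 0. The dendritic cell list had 643, 34.7 and 18.99 CPM, with Zbtb46, Clec9a and Cd209a at 0. The part of other cell types in these changes was not tested.

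**Figure D2:**
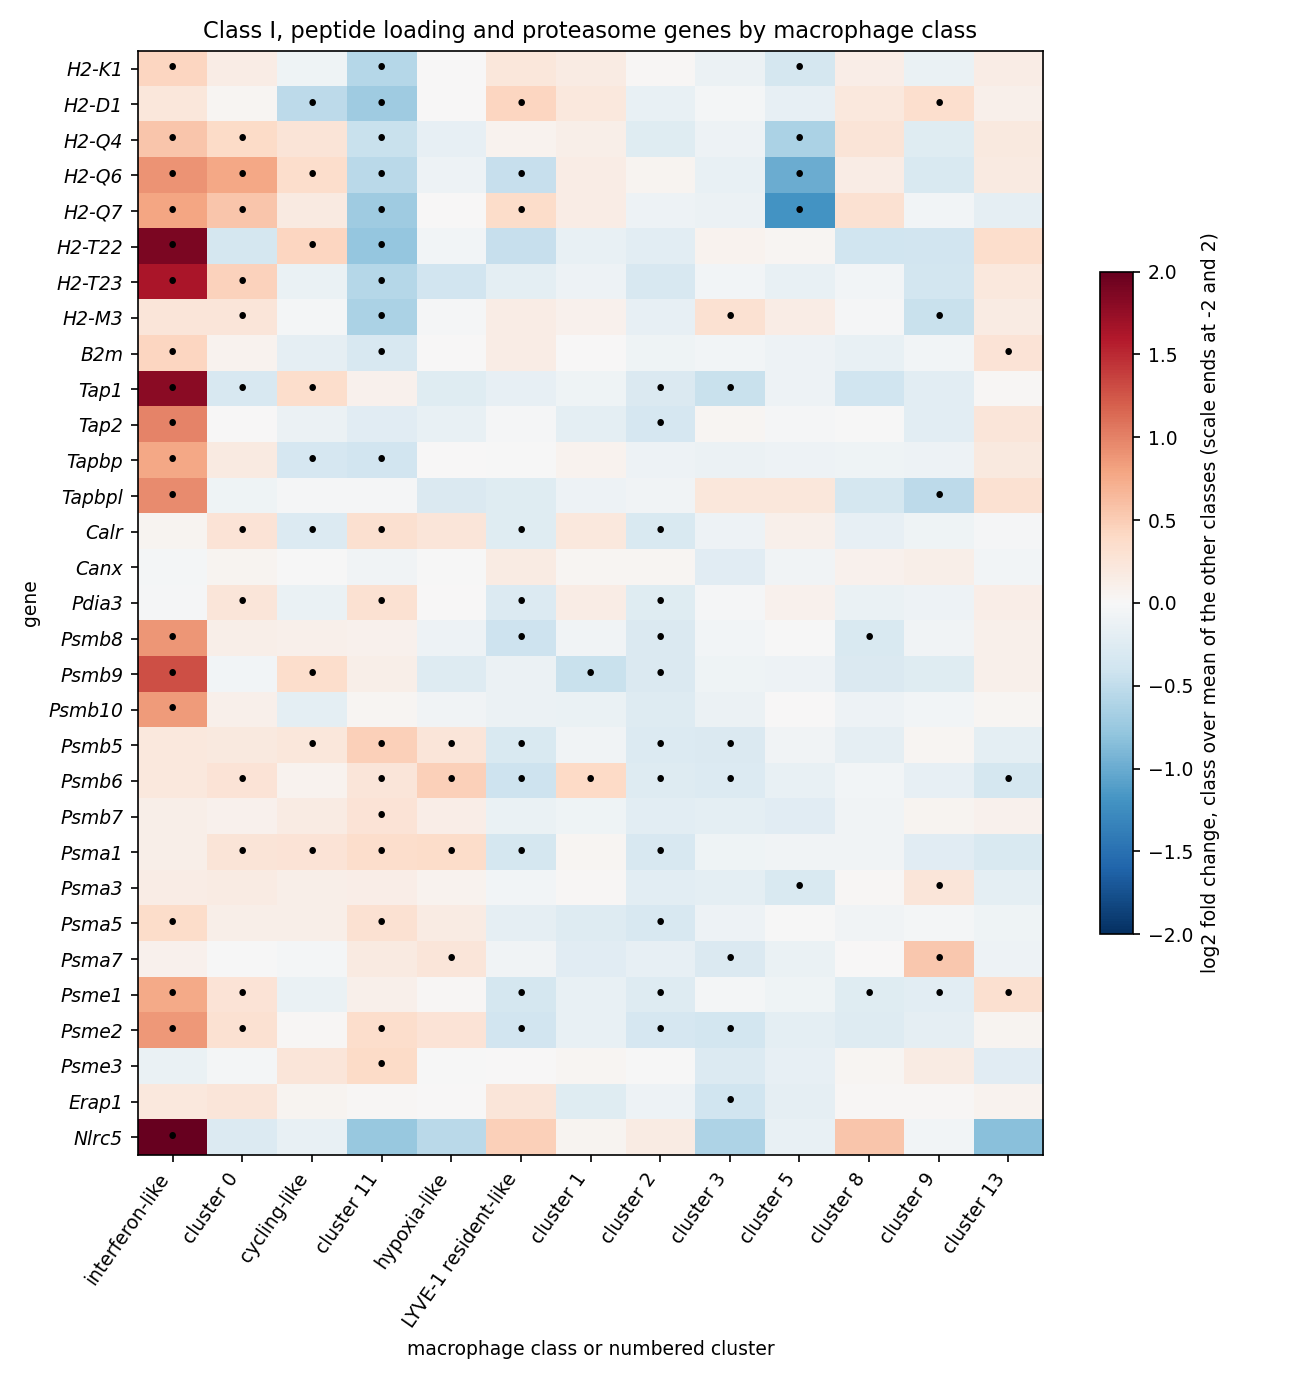
Log2 fold change (colour, from -2 to 2) of each of the 31 genes (rows) in each macrophage class or numbered cluster (columns) over the mean of the other classes, with a dot where the adjusted p was under 0.05. The interferon-like column has 18 dots, all for higher genes, and cluster 11 has lower heavy chain genes above and higher proteasome genes below.

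**Figure D3:**
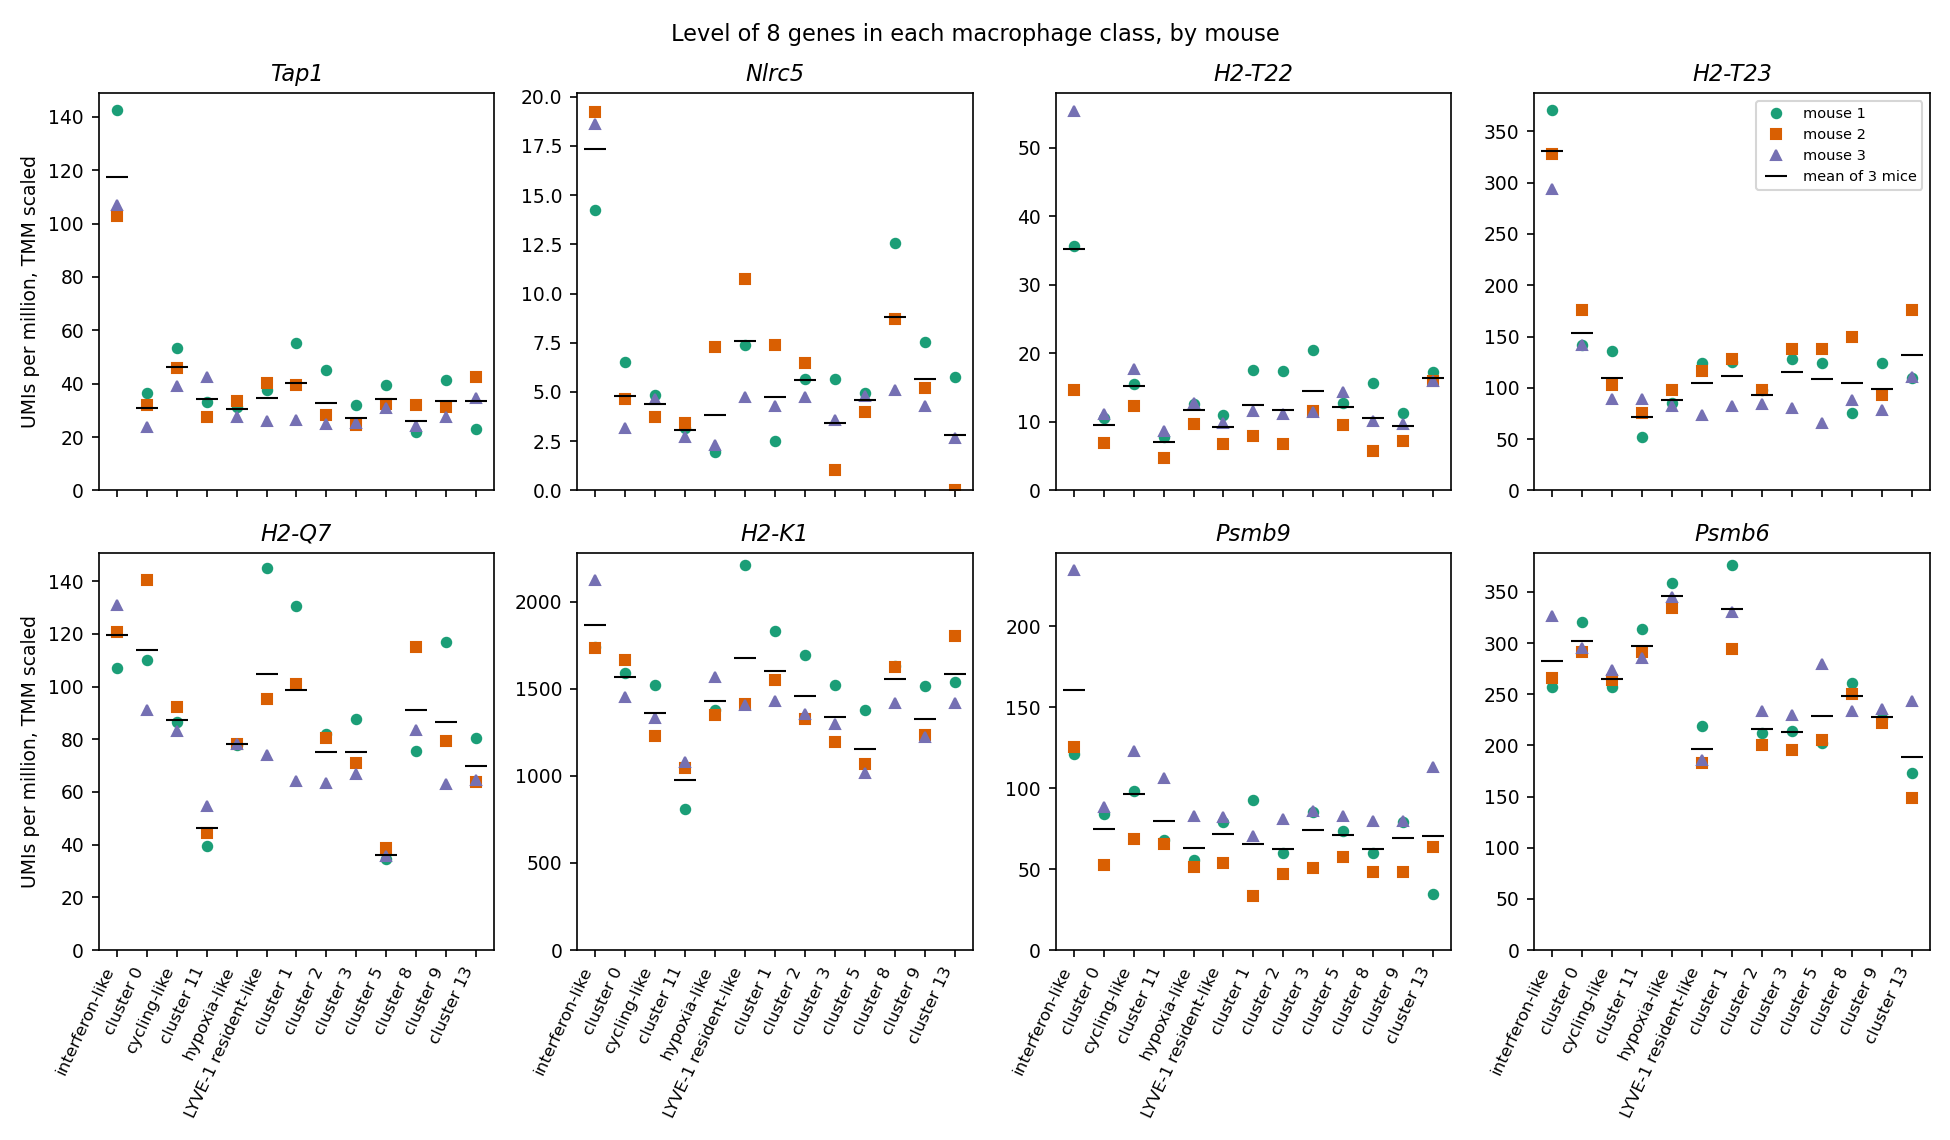
CPM scaled by TMM factors (y) of 8 genes in each of 13 macrophage classes (x), with 1 point per mouse and a bar at the mean of 3 mice. Tap1, Nlrc5, H2-T23 and Psmb9 have their highest mean in interferon-like cells, H2-Q7 is lowest in cluster 5 and Psmb6 is highest in hypoxia-like cells.

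The balance of immunoproteasome and constitutive catalytic subunits was read as the share of Psmb8, Psmb9 and Psmb10 among UMIs of all 6 catalytic genes, given without a test. Over all kept cells it was 47.9% ± 1.21 (SD, n = 3). In interferon-like cells it was 60.3%, 59.2% and 60.8%, against 49.2%, 47.4% and 47.2% in the other classes, and it was the highest of 13 classes in each mouse. In hypoxia-like cells it was 40.5%, 41.2% and 42.2%, against 50.8%, 48.9% and 48.8%, the lowest of 13 classes in each mouse. Cluster 13 (53.5% ± 3.55), cluster 3 (52.0% ± 1.82) and cluster 5 (51.0% ± 2.76) followed interferon-like cells. Cluster 1 (44.2% ± 2.70) and cluster 11 (44.5% ± 1.92) stood next above hypoxia-like cells, and neighbours in this order overlapped between mice.

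Taken pair by pair, Psmb9 made up 32.1%, 32.1% and 41.9% of Psmb9 and Psmb6 UMIs in interferon-like cells, against 22.01%, 18.8% and 25.6% in the other classes, again the highest in each mouse. Psmb8 made up 73.8%, 69.0% and 71.6% of Psmb8 and Psmb5 UMIs, against 63.3%, 61.0% and 59.9%. It was above the other classes in all 3 mice, though cluster 13 was higher in mouse 2. Psmb10 made up 62.1%, 73.7% and 68.0% of Psmb10 and Psmb7 UMIs, against 62.4%, 59.1% and 55.3%, so mouse 1 showed no excess. In hypoxia-like cells the Psmb9 share was 13.4%, 13.4% and 19.3%, against 23.6%, 20.4% and 27.4%.

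Non-classical genes made up 6.62%, 7.79% and 4.92% of the UMIs of the 8 heavy chain genes over all kept cells, lowest in mouse 3. In interferon-like cells the share was 11.03%, 11.8% and 7.67%, against 6.55%, 7.74% and 4.77% in the other classes, the highest of 13 in each mouse. The cycling-like (8.32% ± 1.72) class and cluster 0 (8.06% ± 1.86) followed, and cluster 9 (5.28% ± 1.29) and the LYVE-1 resident-like class (5.34% ± 1.28) were at the low end. The SD between mice was about as wide as the gaps between most classes, so order was read within mice. The rise in interferon-like cells lay in the H2-T genes, whose share was 7.22%, 6.92% and 4.27%, against 2.52%, 3.19% and 1.83%. Their H2-Q share was 2.79%, 4.22% and 2.63%, against 2.93%, 3.65% and 2.05%, above the other classes in mice 2 and 3 only. The H2-Q share was lowest in cluster 5 in each mouse (1.58%, 2.36% and 1.28%, against 3.03%, 3.81% and 2.16%).

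Between the classical genes, H2-D1 made up 66.3%, 64.2% and 74.2% of H2-D1 and H2-K1 UMIs over all kept cells. It was lowest in the cycling-like class in each mouse, at 57.6%, 58.8% and 70.1%, against 67.3%, 64.1% and 75.0% in the other classes. Cluster 9 (74.1% ± 5.51) and the LYVE-1 resident-like class (71.3% ± 4.71) had the highest means. Depth limited the shares most in mouse 1, where the immunoproteasome share of interferon-like cells rests on 114 of 189 UMIs, with an exact 95% binomial interval of 53.0% to 67.3% that covers counting error only.

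**Figure D4:**
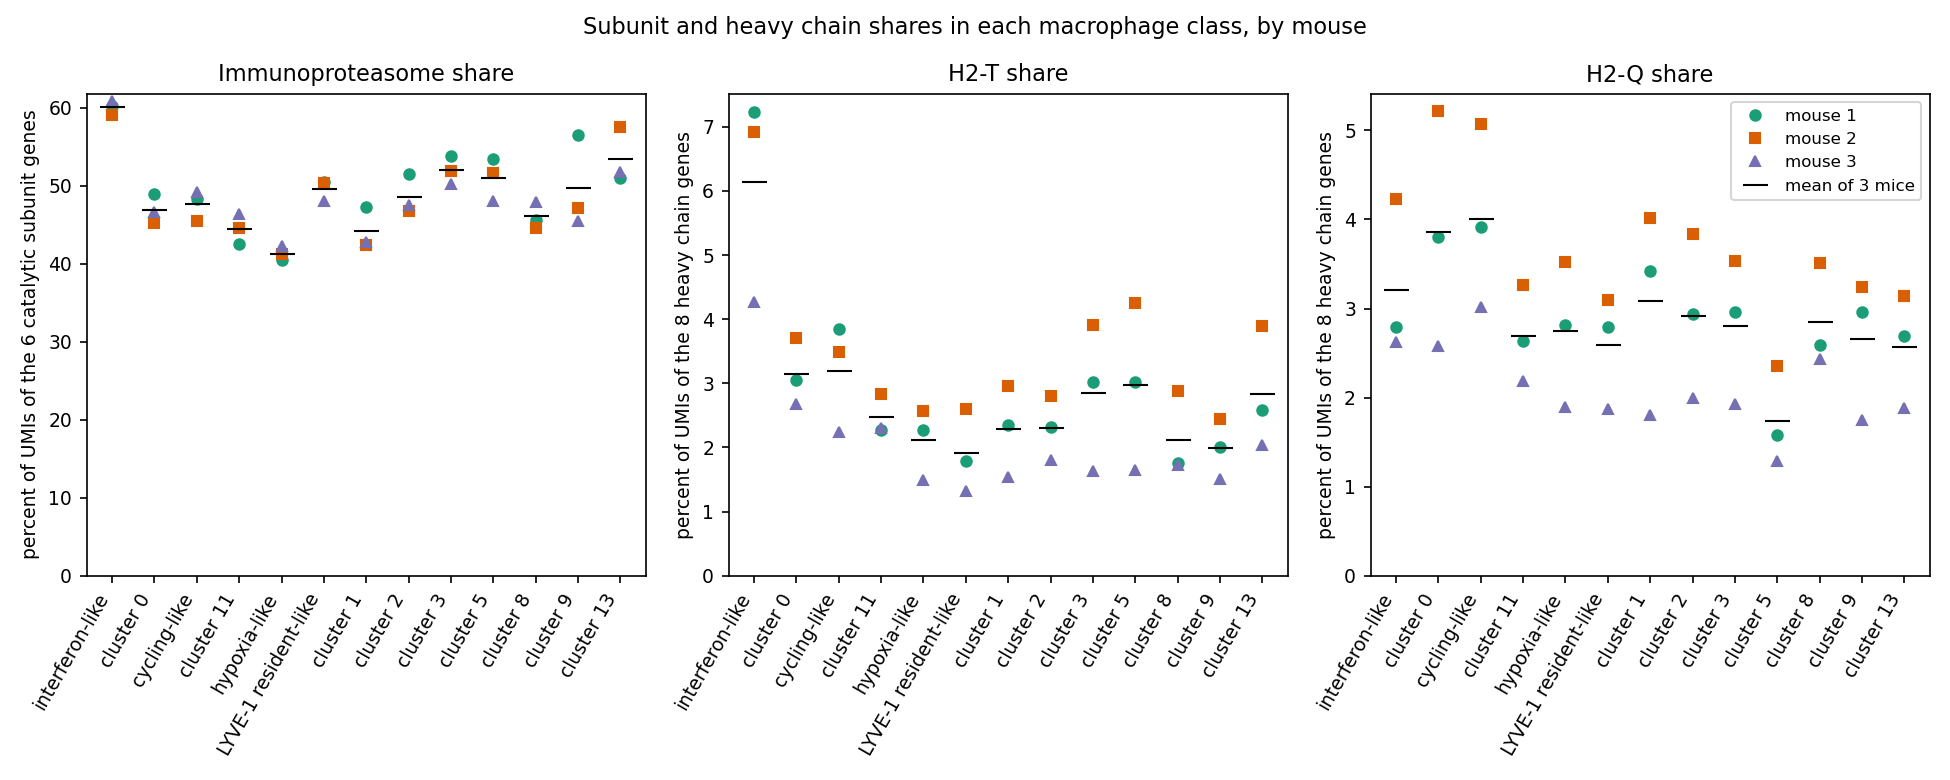
Percent of catalytic subunit UMIs from immunoproteasome genes (left) and percent of heavy chain UMIs from H2-T genes (middle) and H2-Q genes (right) in each macrophage class, with 1 point per mouse and a bar at the mean of 3 mice. Interferon-like cells are highest for the first and second, and cluster 5 is lowest for the third.

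Cluster 0, with raised inflammatory markers, showed small rises in 11 genes and a fall in 1. Non-classical heavy chains led and Tap1 fell. Of the 3 immunoproteasome subunits none was called, 0 had an unadjusted p under 0.05 and DESeq2 called 0. Of all genes, 14.4% rose and 10.9% fell in this class. The median was 0.14 for the 31 genes and -0.01 for all genes. H2-Q6 had 39.9, 55.6 and 25.9 CPM, against 19.3, 30.1 and 19.1 CPM in the other classes (0.77 ± 0.11, adjusted p = 6.4e-07), and H2-Q7 had 110, 140 and 91.0 CPM, against 88.6, 81.7 and 71.9 CPM (0.56 ± 0.11, adjusted p = 0.00027). H2-Q7 ranges were apart and H2-Q6 ranges overlapped. H2-T23 (0.47 ± 0.13), H2-Q4 (0.38 ± 0.12) and H2-M3 (0.24 ± 0.09) also rose. H2-T22 (-0.35), H2-K1 (0.14), H2-D1 (0.03) and B2m (0.07) did not pass.

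Of the loading genes in cluster 0, Calr rose by 0.28 ± 0.09 and Pdia3 by 0.24 ± 0.08, and Tap1 fell by 0.32 on the log2 scale, with 36.7, 32.1 and 23.8 CPM, against 46.3, 40.0 and 36.3 CPM. It was lower in each mouse, with ranges that overlapped. Tap2 (0.01), Tapbp (0.18), Tapbpl (-0.08), Canx (0.06), Erap1 (0.24) and Nlrc5 (-0.28) did not pass. Of the proteasome genes, Psme2 (0.30 ± 0.10), Psme1 (0.28 ± 0.07), Psmb6 (0.27 ± 0.08) and Psma1 (0.26 ± 0.08) rose. Psmb8 (0.12), Psmb9 (-0.06), Psmb10 (0.10), Psmb5 (0.19), Psmb7 (0.08), Psma3 (0.17), Psma5 (0.11), Psma7 (-0.01) and Psme3 (-0.04) did not pass. Most of these calls depended on scaling: with library totals the median of all genes in this class was -0.24, only H2-Q6 (0.54) and H2-Q7 (0.33) rose, and 6 genes fell, among them Tap1 (-0.54), H2-T22 (-0.57) and Psmb9 (-0.28). Without mouse 2 there were 2 calls, without mouse 3 there were 4, without mouse 1 there were 15, and H2-Q6 alone was called in each.

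Of the 79 other pathway genes, 20 rose and 5 fell in cluster 0, where 14.4% of all genes rose and 10.9% fell. The 19S particle gave 8 of the rises among 21 genes, led by Psmd11 (0.46), Psmd10 (0.39) and Psmd12 (0.30). The factors Irf1 (0.48), Rfxap (0.39) and Creb1 (0.27) rose, as did the oxidase subunits Ncf1 (0.51) and Cybb (0.48), which slow antigen degradation in phagosomes. Hspa5, the main chaperone of the endoplasmic reticulum, rose by 0.48, and the peptidase genes Lap3 and Nrd1 by 0.48 and 0.30. Core subunits Psmb1 (0.22) and Psmb4 (0.22) and the assembly chaperone Pomp (0.27) rose too. Of the class I-like genes, H2-M2 rose (2.23 ± 0.60), whereas Fcgrt, the neonatal Fc receptor, fell by 1.14, Ulbp1 by 2.01 and Hfe by 0.29. The log2 fold change of H2-M2 was very imprecise in some other classes, with an SE of 40.1 in cluster 8 and 13.8 in cluster 9. Susd6, which takes part in surface class I turnover, fell by 0.35.

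Set directly against cluster 0, interferon-like cells had 13 of the 31 genes higher and none lower, and DESeq2 called the same numbers. Of all genes, 4.22% were higher and 5.4% lower in this comparison. The largest differences were in Nlrc5 (2.21 ± 0.33), H2-T22 (2.06 ± 0.23), Tap1 (1.96 ± 0.16), Psmb9 (1.25 ± 0.14) and H2-T23 (1.08 ± 0.19). Tapbpl (0.95), Tap2 (0.91), Psmb8 (0.70 ± 0.11), Psmb10 (0.69), Tapbp (0.55), Psme2 (0.53), Psme1 (0.43) and B2m (0.34 ± 0.10) were also higher, with Psmb10, Tapbp and Psme2 so in 2 of 3 mice. H2-K1 (0.27), H2-D1 (0.18), H2-Q4 (0.16), H2-Q6 (0.13), H2-Q7 (0.21), H2-M3 (0.00), Psmb5 (0.01), Psmb6 (-0.05) and Psmb7 (0.03) were not called. Without mouse 3 there were 4 calls and without mouse 2 there were 8, and H2-T23, Tap1, Psmb8 and Psmb9 were called whichever mouse was left out. Irf1 (0.71 ± 0.16) and Susd6 (0.52) were the only called genes of the other 79. With library totals the median of all genes was 0.16 and 16 of the 31 were higher.

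In the LYVE-1 resident-like class, 2 of the 31 genes rose, the heavy chains H2-D1 and H2-Q7. Of the 31, 9 fell, mostly proteasome genes but also the heavy chain H2-Q6. Of all genes, 20.4% rose and 15.4% fell, so the share of risers among the 31 was under the background. The median was -0.12 for the 31 genes and 0.00 for all genes. H2-D1 had 4940, 3007 and 4633 CPM, against 3050, 2440 and 4059 CPM in the other classes (0.44 ± 0.10, adjusted p = 0.00077), higher in each mouse with ranges that overlapped. H2-Q7 rose by 0.36 ± 0.12 in each mouse, and H2-Q6 fell by 0.46 in 2 of 3 mice. H2-K1 (0.23), H2-Q4 (0.08), H2-T22 (-0.46), H2-T23 (-0.20), H2-M3 (0.14) and B2m (0.15) did not pass.

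Psmb8 had 243, 214 and 207 CPM in LYVE-1 resident-like cells, against 306, 291 and 303 CPM in the other classes, and fell by 0.41 (SE 0.08, adjusted p = 8.1e-05). Psmb6 had 219, 183 and 186 CPM, against 264, 247 and 276 CPM, and fell by 0.41 (SE 0.08, adjusted p = 9.3e-05). Both pairs of ranges were apart, so an immunoproteasome and a constitutive subunit were lower by a like amount. Psme1 had 247, 200 and 209 CPM, against 305, 268 and 278 CPM, and fell by 0.36. Psme2 fell by 0.39, Psma1 by 0.36, Psmb5 by 0.31, Pdia3 by 0.27 and Calr by 0.25. Not called were Psmb7 (-0.14), Psmb9 (-0.12), Psmb10 (-0.12), Psma3 (-0.05), Psma5 (-0.18), Psma7 (-0.06), Psme3 (0.00), Tap1 (-0.16), Tap2 (-0.02), Tapbp (0.00), Tapbpl (-0.24), Canx (0.16), Erap1 (0.25) and Nlrc5 (0.48). Without mouse 3 there were 5 calls, without mouse 2 there were 6, and H2-D1, Psmb8, Psmb6 and Psme1 were called whichever mouse was left out. The monocyte list summed to 3441, 1683 and 2082 CPM in this class, and its part in these changes was not tested.

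Of the 79 other pathway genes, 8 rose and 12 fell in LYVE-1 resident-like cells, where 20.4% of all genes rose and 15.4% fell. Fcgrt, which recycles IgG and albumin with B2m as its light chain, had 813, 715 and 844 CPM, against 153, 114 and 111 CPM (2.87 ± 0.11, adjusted p = 1.8e-17). The ranges were far apart. Cd1d1, which presents lipids to NKT cells, rose by 1.71 ± 0.29 and Hfe by 0.58 ± 0.09. Susd6 (0.60), Nfyb (0.48), Irf1 (0.42), Wwp2 (0.34) and the peptidase Npepps (0.33) also rose. The leucine aminopeptidase gene Lap3 had 44.2, 63.8 and 85.3 CPM, against 142, 163 and 189 CPM, and fell by 1.28, with ranges apart. Cybb fell by 0.52 and 5 of 21 genes of the 19S particle fell, the largest falls being those of Psmd14 and Psmd1 (both 0.30), while Psmb3 fell by 0.29 and Pomp by 0.27. Fcgrt and Hfe bind no peptide, and Cd1d1 binds lipids.

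In cluster 11, led by S-phase genes, heavy chains were lower and proteasome genes higher: 9 of the 31 genes rose and 10 fell. Of all genes, 19.3% rose and 16.1% fell. All 8 heavy chains and B2m fell, and all 3 constitutive catalytic subunits rose. H2-K1 had 812, 1048 and 1077 CPM, against 1629, 1433 and 1420 CPM in the other classes, and fell by 0.58 (SE 0.10, adjusted p = 3.4e-05) with ranges apart. H2-D1 had 1666, 1578 and 2947 CPM, against 3323, 2559 and 4200 CPM, and fell by 0.70 in each mouse with ranges that overlapped. H2-Q7 had 39.4, 44.4 and 54.7 CPM, against 94.5, 89.7 and 74.9 CPM, and fell by 0.71. H2-M3 had 25.2, 26.7 and 35.1 CPM, against 56.8, 37.2 and 51.9 CPM, and fell by 0.63, with H2-Q7 and H2-M3 ranges apart. H2-T22 fell by 0.77, H2-T23 by 0.56, H2-Q6 by 0.53 and H2-Q4 by 0.44, though H2-Q4 and H2-Q6 were not called with library totals, and 2 smaller falls, of Tapbp and B2m, completed the 10.

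Psmb5 had 255, 228 and 236 CPM in cluster 11, against 159, 172 and 182 CPM in the other classes (0.48 ± 0.08, adjusted p = 2.2e-06). Calr had 1174, 1045 and 970 CPM, against 798, 880 and 882 CPM (0.33 ± 0.09). Both pairs of ranges were apart. Psme3 (0.38), Psma1 (0.35), Psme2 (0.35), Psma5 (0.31), Pdia3 (0.30) and Psmb7 (0.28) rose, as did Psmb6 by 0.24. None of Psmb8, Psmb9 and Psmb10 was called, 0 of them had an unadjusted p under 0.05, and DESeq2 called 0. Calls in every round of leaving out a mouse were those of H2-K1, H2-D1, H2-Q7, H2-M3, B2m, Tapbp, Calr, Psmb5 and Psma1. Cluster 11 had no matching cluster, and so no value, with up to 25% mitochondrial UMIs, at least 1000 genes or Leiden resolution 0.5. The same held with clusters and values from separate UMIs. With library totals 12 rose and 8 fell.

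The wider proteasome moved with these genes in cluster 11. Of 79 other pathway genes, 33 rose and 11 fell, where 19.3% of all genes rose and 16.1% fell. The 19S particle had 15 of 21 genes higher, led by Psmc2 (0.50), Psmd14 (0.46) and Psmd2 (0.44), and 6 of the 7 other core subunits rose, led by Psmb2 (0.46), Psma6 (0.36) and Psmb3 (0.31). The assembly chaperones Psmg1 (0.81), Psmg2 (0.73) and Psmg3 (0.46) rose. The peptidases Thop1 (0.99), Ide (0.50) and Blmh (0.44), which destroy or shorten peptides in the cytosol, rose, and Npepps fell by 0.73. The protein disulfide isomerase Pdia6 (0.43) and Erp29 (0.31) rose, while Creb1 fell by 0.56 and Irf2 by 0.37. Tmem127 and Susd6, which take part in class I turnover, fell by 0.84 and 0.71, and Rab27a rose by 1.10. Fcgrt fell by 1.29, and the NKG2D ligand gene Raet1e rose by 1.56.

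The cycling-like class, named by a list of both mitotic and replication markers, had 6 of the 31 genes higher and 3 lower. Of all genes, 16.2% rose and 14% fell. H2-D1 had 2065, 1752 and 3129 CPM, against 3290, 2545 and 4184 CPM in the other classes, and fell by 0.52 (SE 0.11, adjusted p = 0.00042) in each mouse, with ranges that overlapped. Tapbp fell by 0.34 and Calr by 0.28, and neither was called with library totals, under which the median of all genes was 0.15, 14 genes rose and 1 fell. H2-T22 (0.42), Psmb9 (0.36), Tap1 (0.35), H2-Q6 (0.34), Psma1 (0.27) and Psmb5 (0.22) rose. Tap1 had 53.4, 45.9 and 39.1 CPM, against 45.0, 38.9 and 35.0 CPM, a difference within the range over mice. Without mouse 2 there was 1 call and without mouse 3 there were 2, and H2-D1 alone was called in each.

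Of the other 79 pathway genes in cycling-like cells, 17 rose and 5 fell, where 16.2% of all genes rose and 14% fell. The 19S particle again gave most, with 9 of 21 genes higher, led by Psmd9 (0.39), Psmd14 (0.38) and Psmc4 (0.34). The NKG2D ligand genes Raet1e (2.66 ± 0.27) and Ulbp1 (2.47 ± 0.27), distant class I relatives that activate natural killer cells, rose. Psmg2 (0.60), Nfyb (0.64, in 2 of 3 mice) and Nfyc (0.27) rose. Fcgrt fell by 0.72, Susd6 by 0.55, Hfe by 0.42, Irf2 by 0.37 and Cyba by 0.35.

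In the hypoxia-like class, 4 of the 31 genes rose and none fell. They were the constitutive catalytic genes Psmb5 and Psmb6 and the alpha ring genes Psma1 and Psma7. DESeq2 called 5 higher and 0 lower. Of all genes, 4.43% rose and 4.08% fell. Psmb6 had 359, 335 and 345 CPM, against 253, 234 and 263 CPM in the other classes (0.48 ± 0.08, adjusted p = 1.5e-05). Psma1 had 217, 189 and 227 CPM, against 168, 141 and 181 CPM (0.37 ± 0.08, adjusted p = 0.0012). Both pairs of ranges were apart. Psma7 (0.24) rose in each mouse and Psmb5 (0.24) in 2 of 3. Without mouse 2 or without mouse 3 Psmb6 was the 1 call, and without mouse 1 there were 7. Of 79 other pathway genes 9 rose and 4 fell: the disulfide isomerases P4hb (0.80) and Pdia6 (0.40), the 19S genes Psmd1 (0.37), Psmd8 (0.36) and Psmd12 (0.24) among 21, Rfxap (0.43), Cyba (0.25), Psmb1 (0.23) and Psma2 (0.23) rose. Irf1 had 11.7, 22.9 and 12.5 CPM, against 37.9, 46.2 and 26.5 CPM, and fell by 1.03, and Fcgrt fell by 0.98, Hfe by 0.45 and Susd6 by 0.42. Irf1 ranges did not overlap.

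Cluster 5, led by Txnip, Il16 and Hhex, had 5 of the 31 genes lower and none higher, and DESeq2 called 7 lower and 0 higher. Of all genes, 23.1% rose and 13.4% fell. All 3 H2-Q genes fell. H2-Q7 had 34.6, 38.6 and 35.6 CPM, against 94.9, 90.2 and 76.5 CPM in the other classes, and fell by 1.19 (SE 0.14, adjusted p = 2.9e-08). H2-Q6 had 9.88, 15.6 and 10.7 CPM, against 21.8, 33.4 and 20.4 CPM, and fell by 1.00 (SE 0.16, adjusted p = 1.9e-06). H2-Q4 had 27.5, 27.2 and 16.2 CPM, against 39.1, 39.9 and 29.7 CPM, and fell by 0.63. Ranges of all 3 were apart. H2-T22 and H2-T23 were not called, and whether H2-Q and H2-T genes differed was not tested in itself. H2-K1 fell by 0.35 and Psma3 by 0.30, and neither was called with library totals, under which the 3 H2-Q genes still fell, 3 genes rose and the median of all genes was 0.22. Without mouse 2 or without mouse 3 the calls of H2-Q6 and H2-Q7 remained. The inflammatory marker list summed to 1844, 2195 and 2029 CPM here, and in the other 12 classes to between 8714 and 29515 CPM over mice. Of 79 other pathway genes 3 rose, Mr1 (0.82), Psmg3 (0.78) and Lap3 (0.63), and 11 fell, with the largest falls in Cd1d1 (-1.11, in 2 of 3 mice), Hspa5 (-0.57) and Ncf1 (-0.38).

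In cluster 9, Psma7 had 363, 464 and 452 CPM, against 286, 275 and 337 CPM in the other classes (0.55 ± 0.08, adjusted p = 1.1e-07), with ranges apart. H2-D1 (0.33) and Psma3 (0.24) also rose there, and Tapbpl fell by 0.52, H2-M3 by 0.44 and Psme1 by 0.20, against 14.1% of all genes higher and 9.98% lower. Of these calls Psma7 was made whichever mouse was left out. In cluster 1, Psmb6 had 376, 294 and 330 CPM, against 251, 238 and 264 CPM (0.40 ± 0.08, ranges apart), and was the 1 riser, while Psmb9 fell by 0.44 in 2 of 3 mice, with 7.82% of all genes higher and 4.76% lower. With library totals 1 rose and 4 fell in cluster 1. In cluster 13, Psme1 (0.33) and B2m (0.28) rose and Psmb6 fell by 0.36, against 2.31% and 2.26% of all genes, and none of the 3 held in every round of leaving out a mouse.

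Cluster 2 was the deep cluster with raised doublet scores and with LYVE-1 markers. It had 12 of the 31 genes lower and none higher, all by 0.24 to 0.34 on the log2 scale. DESeq2 called 15 lower and 0 higher, and of all genes 8.32% were higher and 6.61% lower. Psme2 had 178, 152 and 171 CPM, against 240, 193 and 216 CPM, and Psmb8 had 250, 220 and 248 CPM, against 306, 290 and 299 CPM, both with ranges apart. Tap2, Psma5, Psma1, Calr, Psmb9 and Psmb5 were among the rest. With library totals only Psma1 was called, and without mouse 2 or without mouse 3 none of the 12 was. In cluster 3, led by heat shock and immediate early genes, H2-M3 rose (0.30) and 6 genes fell, against 8.49% of all genes higher and 6.34% lower. Tap1 had 31.8, 24.7 and 25.3 CPM there, against 46.8, 40.6 and 36.2 CPM, and fell by 0.44 with ranges apart. Psme2 (-0.37), Psma7 (-0.29), Psmb5 (-0.29) and Psmb6 (-0.28) were lower in each mouse and Erap1 (-0.40) in 2 of 3. With library totals 0 rose and 8 fell in cluster 3, so the rise of H2-M3 was not called. In cluster 8, Psmb8 fell by 0.30 and Psme1 by 0.25, against 10.5% of all genes higher and 4.79% lower. With library totals the median of all genes there was -0.13 and 9 genes fell, the other 7 being Tap1, Psmb9, Psme2, Psmb5, Calr, B2m and Pdia3. The calls of clusters 3 and 8 were all lost without mouse 2 and likewise without mouse 3.

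Of the 79 other pathway genes, class I-like genes were among those called in these clusters. The shares of all genes that rose and fell in each cluster are those given above. Fcgrt rose in cluster 8 (1.13 ± 0.15), in cluster 2 (0.99 ± 0.13) and in cluster 9 (0.53 ± 0.15), besides the LYVE-1 resident-like class. Hfe rose in cluster 8 (0.72 ± 0.10) and cluster 3 (0.38 ± 0.09), and Cd1d1 (2.46 ± 0.22) and Ulbp1 (1.01) in cluster 9. In all, 3 of the 79 rose and 5 fell in cluster 8, with Lap3 (-0.88), Psmg3 (-0.87) and Psmg2 (-0.51) lowest. In cluster 9, 13 rose and 4 fell, among them Psma4 (0.67), Susd6 (0.46) and the translocon gene Sec61b (0.44) higher and Lap3 (-0.52) lower. Cluster 2 had 3 higher and 17 lower, 9 of the falls in the 19S particle, led by Psmc2 (-0.41). Cluster 3 had 6 higher, with Irf1 (0.89) first, and 10 lower, 5 of them 19S genes led by Psmc1 (-0.44). Cluster 1 had 3 higher and 3 lower, Lap3 (0.69) and Irf1 (-0.94) changing most, and in cluster 13 Psmd12 (-0.55), Psmd11 (-0.47) and Ncf1 (-0.46) fell.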

How the data were processed

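Sorted macrophages of 3 tumours from 3 mice were measured by droplet 3′ RNA sequencing. The authors deposited raw UMI counts per gene and cell, made with Cell Ranger 3.0.2 on mm10 per the submitters' processing notes; the gene annotation is not given in the sources used here. Strand use and cell filters before deposit are likewise not given. Reads were already collapsed to UMIs, so a count is a molecule tag at the 3′ end and is not scaled by gene length.

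Barcodes under 500 genes or over 15% mitochondrial UMIs were removed, and the rest kept (9749 of 10973). They were clustered with scanpy 1.11.5 on 2000 variable genes (30 components, 15 neighbours, Leiden resolution 1.0 with leidenalg 0.10.2, Python 3.11.15), leaving out the 31 genes, the other pathway genes, ribosomal and mitochondrial genes. A name went to the 1 cluster with most of a fixed marker list raised, over 0.5 of it and at least 4 markers; clusters under 0.5 of their mice's median UMIs stayed out. Cluster 0 met the inflammatory list but is called by number, since its leading genes include Il12b and Siglech of other lists. Scrublet's own threshold marked 12, 1 and 1 cells and had not worked, so no cell was removed as a doublet; removing the 9, 49 and 442 highest scores was an alternative. Levels over all cells are CPM, UMI counts scaled to equal totals.

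Counts were summed per class and mouse with at least 5 cells and tested with edgeR 4.0.16 (quasi-likelihood, TMM factors, filterByExpr, R 4.3.3), with mouse as a block, because a number marks 1 animal in every class: same-mouse deviations correlated at medians of 0.24, 0.45 and 0.42 over 78 pairs of classes. The 31 genes and the pathway lists were chosen with earlier results of these data known. All 31 passed the filter on low counts, as did 79 of the 86 other pathway genes found. Named genes were all 31 in the interferon-like and LYVE-1 resident-like classes and cluster 0, and elsewhere up to 8 called in each direction, alike in 3 of 3 mice, plus up to 3 called pathway genes per role and direction. DESeq2 1.42.0 was an alternative. The fit was tested on simulated data.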

Additional observations from a re-analysis of the deposited data

How the results depend on the processing

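Without the replicate block the pairing of classes within mice is lost, and the numbers of the 31 genes called were 12 in the interferon-like class (18 with the block), 2 in cluster 0 (12), 1 in hypoxia-like (4), 0 in cycling-like (9), 5 in LYVE-1 resident-like (11), 5 for interferon-like minus cluster 0 (13) and 12 over the other numbered clusters (56). With equal numbers of cells in each class (8, 17 and 50 in mice 1, 2 and 3) there were 11, 0, 0, 1, 6, 5 and 11 in the same order, which uses fewer cells by construction, and H2-T23 (-0.048) and H2-M3 (-0.16) turned negative in cluster 0. Leaving out each mouse in turn gave 7 to 21 calls in interferon-like, 2 to 15 in cluster 0, 1 to 7 in hypoxia-like, 1 to 9 in cycling-like and 5 to 10 in LYVE-1 resident-like cells, 4 to 14 for interferon-like minus cluster 0 and 17 to 63 over the other numbered clusters; the all-cell immunoproteasome share then ranged from 47.2% to 48.4% and the non-classical share from 5.77% to 7.20%. In hypoxia-like cells there were 17 calls with up to 25% mitochondrial UMIs, 13 at Leiden resolution 1.5, 11 with clusters and values from separate UMIs and 7 with low-UMI clusters kept. In cycling-like cells there were 15 with the highest Scrublet scores removed, 14 at resolution 1.5, 14 against all other cells and 15 with library totals, where TMM factors were left out. LYVE-1 resident-like cells had 7 against all other cells. The other numbered clusters had 34 with no filter on low counts and 36 with low-UMI clusters kept. The cause of these differences in number was not tested. The share of all genes called in each alternative setting is not given here. These numbers therefore do not tell whether a change was particular to the 31 genes. Classes with no matching cluster gave no value in some settings. These were clusters 1 and 8 with up to 8% mitochondrial UMIs and cluster 11 with up to 25%. With at least 1000 genes they were hypoxia-like cells and clusters 11 and 13. At Leiden resolution 0.5 they were clusters 3, 8, 11 and 13, and at 1.5 cluster 1. With clusters and values from separate UMIs they were clusters 11 and 13. The high-UMI clusters and the library totals were chosen as alternatives after seeing the data. DESeq2's Wald test kept the direction and the side of the threshold for all but 6 of the results, and its size factors for all but 4. Interferon-like cells gave no value with at least 20 cells in each mouse, since mouse 1 had 8. In the main clustering no lipid-associated-like or MHC-II high-like class formed, so comparisons planned for these were not run. With up to 25% mitochondrial UMIs the cluster matched to cluster 0 was named MHC-II high-like. At Leiden resolution 0.5 the cluster matched to cluster 9 had that name. Depth limits Nlrc5 and H2-T22 most, and 3 mice limit every test.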
